A study of Mus musculus with 6 samples.

Results

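The mitochondrial ribosomal proteins were followed in bulk RNA sequencing of the proximal mouse incisor after loss of Fgfr1. They were taken as every gene of the deposited counts whose symbol starts with Mrpl (large subunit) or Mrps (small subunit) followed by a number and, for paralogs, a letter, with pseudogenes left out. The rule used names only and no measured value, and it gave 78 of the 19060 genes, 49 named for the large and 29 for the small subunit.

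The mitochondrial ribosome translates the small set of messages encoded by mitochondrial DNA, all of which are core subunits of the respiratory chain and of ATP synthase. Its rRNAs are made inside the organelle, whereas its proteins are encoded in the nucleus, translated in the cytosol and imported. Many of these proteins have counterparts in bacterial ribosomes, and others were added during the evolution of mitochondria.

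The study removed Fgfr1, a receptor for fibroblast growth factors, from Gli1+ cells, which are the mesenchymal stem cells of the continuously growing incisor, and also from their progeny. Control mice were Fgfr1fl/fl, called wild type in the labels, and mutant mice were Gli1CreER;Fgfr1fl/fl, written Gli1-Cre;Fgfr1fl/fl in the labels. Mice of both groups were 1 month old, carried the floxed alleles and were sampled 1 week after tamoxifen, with 3 control and 3 mutant samples. The Gli1 promoter drives the recombinase, so cells without Gli1 expression or a Gli1+ ancestor keep the receptor, and the libraries hold RNA of all cells of the proximal incisor.

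Total counts were between 31060222 and 32712448 in the controls and between 5276557 and 11819576 in the mutants, so mutant values rest on fewer reads. Levels are given as CPM, the counts of a gene per 1000000 counts of its library, after upper-quartile scaling, and changes as the log2 fold change of mutant minus control with its standard error (SE). Over all genes tested, log2 CPM correlated at 0.944 to 0.973 among the controls and at only 0.725 to 0.791 among the mutants. Mutant 2 was closer to control 1 (0.818) and control 3 (0.808) than to mutant 1 (0.728) or mutant 3 (0.791). Fgfr1 itself was at 529, 924 and 434 CPM in the controls and at 148, 318 and 262 CPM in the mutants. The groups did not overlap, and its log2 fold change was -1.37 (SE 0.40, adjusted p = 0.0881 by the quasi-likelihood test of edgeR). Skeletal muscle markers, of which 13 of 13 were tested and 0 passed an adjusted p of 0.05, summed to 10.8, 3324 and 33.4 CPM in the controls and to 7723, 188 and 1264 CPM in the mutants, with Myh2 at 0 in control 1 and Myh4 at 0 in mutant 3. Enamel epithelium markers, of which 8 of 8 were tested and none was at 0, summed to between 85576 and 120528 CPM in the controls and to between 33314 and 72493 CPM in the mutants, with Odam alone of the 8 past an adjusted p of 0.05, as a higher value. The part of either tissue in the values below was not tested.

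Of the mitochondrial ribosomal proteins, 65 of 78 had a positive log2 fold change, against 48.2% of all 15826 genes tested. All 78 passed the filter on low counts. The median log2 fold change of the 78 was 0.58, against -0.04 over all genes tested. In bulk tissue, a change in the number of cells of a type and a change in the RNA of each cell cannot be told apart. At an adjusted p under 0.05, 8 were higher in mutants (Mrpl42, Mrpl50, Mrps34, Mrpl20, Mrpl15, Mrps33, Mrpl1 and Mrpl41) and 0 were lower, where 3.72% of all genes were called higher and 3.06% lower. At the threshold of an unadjusted p under 0.05 with a change of over 1.5-fold, 26 were higher and 1, Mrpl10, was lower, against 10.9% and 8.92% of all genes. All mutant samples lay above all control samples for 32 and below them for 1, where the shares over all genes were 14.1% and 16.3%.

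Fewer genes of any kind passed an adjusted p with a sample left out, when 0.941%, 1.19% and 0.474% of all genes were called higher without control 1, 2 and 3 and 2.73%, 0.702% and 0.777% without mutant 1, 2 and 3. Of the members, without control 1, control 2 or mutant 1 only Mrpl42 was called, and without control 3, mutant 2 or mutant 3 none was. At the unadjusted threshold the number of higher members was 32 without control 1, 17 without control 2, 17 without control 3, 21 without mutant 1, 27 without mutant 2 and 19 without mutant 3, where 10.8%, 8.88%, 7.88%, 12.2%, 11.1% and 10.4% of all genes passed in the same order. Across those 6 fits, 15 members were higher each time (Mrpl1, Mrpl13, Mrpl15, Mrpl18, Mrpl20, Mrpl32, Mrpl41, Mrpl42, Mrpl50, Mrpl52, Mrpl53, Mrpl57, Mrps18c, Mrps33 and Mrps34), and Mrpl10 was lower each time. Mrps18c and Mrpl52 of these 15 change sign under the length correction described below, Mrpl52 only with the length of the longest transcript (-0.16). In the annotation, 88% of the exon bases of Mrpl53 overlap Gm42688, another counted gene, on the same strand, so its counts could be shared with that gene. With transcript length and GC content corrected for, as described below, 0 were called at an adjusted p under 0.05 (0.706% of all genes were called higher).

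**Figure D1:**
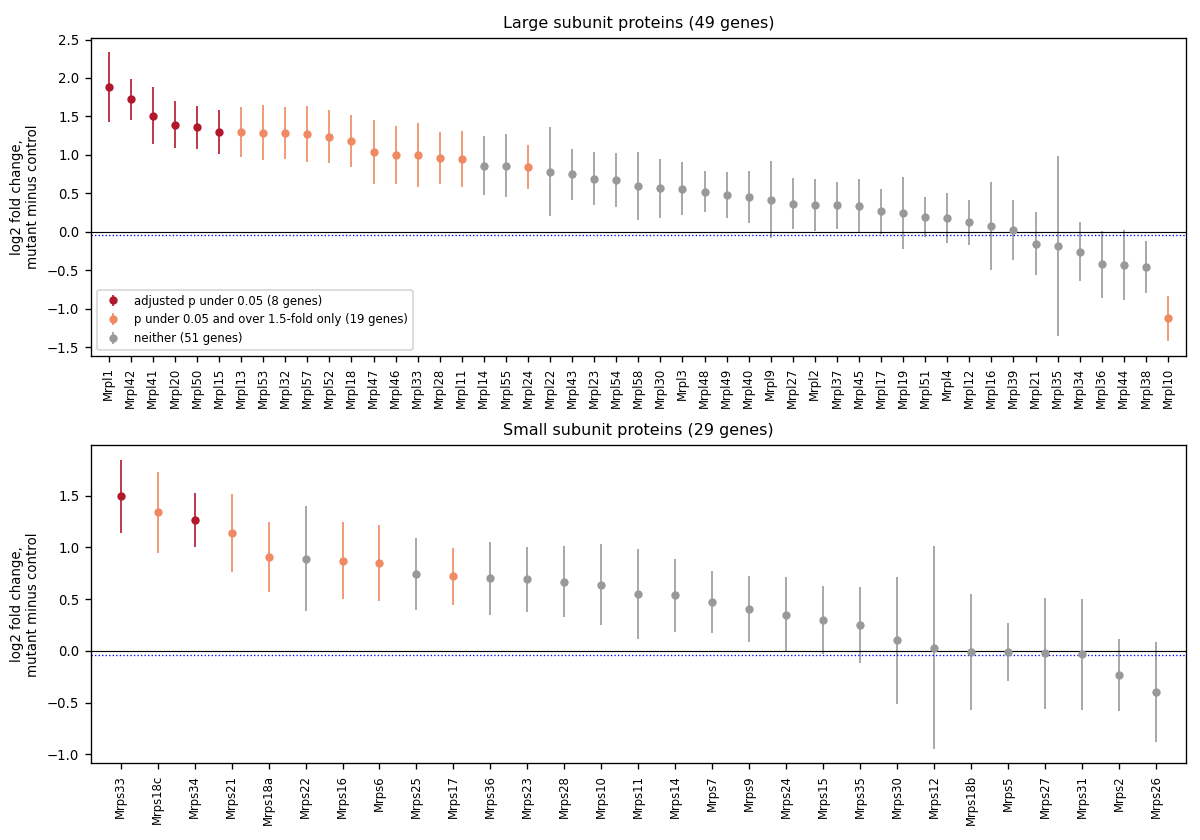
Log2 fold change, mutant minus control, of each mitochondrial ribosomal protein gene, with bars of 1 SE, for the large (upper panel) and small subunit (lower panel). The dotted line is the median over all genes tested (-0.04). Values run from 1.88 for Mrpl1 to -1.12 for Mrpl10, and 65 of 78 lie above 0.

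The promoters of a few of these genes are shown to describe their sequences, and any part of them in the changes above was not tested. Windows from 250 bases before to 50 bases after a transcription start, taken from RefSeq on GRCm38.p6, were found for 69 of the 78 genes (75 windows). They were searched on both strands for TGCGCA, the core of the sites of NRF1, which reads the same on both strands, for CCGGAAG, the core recognised by ETS factors, and for AAGATGGC, the letters bound by YY1. None of the 3 contains another, although matches can lie side by side. NRF1 letters stood in 29.3% of the member windows, 12.7% of the windows of other tested genes and 7.76% of all 32851 windows. These 6 letters were chosen after a longer form of the NRF1 site had been counted. That form stood in smaller shares of all 3 sets, with a smaller ratio of member windows to the others, so the NRF1 shares depend on the letters searched. ETS letters stood in 34.7%, 15.8% and 8.86% of them, and YY1 letters in 16%, 3.93% and 2.75%. In all, 44 of the 69 genes held at least 1 of the 3. Among the 23 members with a window that were higher at the unadjusted threshold, the NRF1, ETS and YY1 letters stood in 7, 10 and 3, and among the 45 called in neither direction they stood in 13, 16 and 9. A match describes letters and not binding. The 4 windows below, written 5′ to 3′ along the gene with the matches in capitals, belong to Mrpl42 (chr10:95501900-95502199, minus strand), the member with the smallest p and a YY1 match, to Mrps33 (chr6:39810887-39811186, minus strand), a small subunit member with an ETS match, to Mrpl32 (chr13:14612988-14613287, minus strand), with a YY1 match and several NRF1 matches, and to Mrpl10 (chr11:97041332-97041631, plus strand), the member that was lower, with an NRF1 match.
Mrpl42: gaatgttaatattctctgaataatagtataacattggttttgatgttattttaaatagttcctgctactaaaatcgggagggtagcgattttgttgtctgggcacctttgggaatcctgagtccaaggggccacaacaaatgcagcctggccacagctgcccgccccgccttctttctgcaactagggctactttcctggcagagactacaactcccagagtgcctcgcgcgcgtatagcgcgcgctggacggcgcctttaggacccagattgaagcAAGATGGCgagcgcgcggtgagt
Mrps33: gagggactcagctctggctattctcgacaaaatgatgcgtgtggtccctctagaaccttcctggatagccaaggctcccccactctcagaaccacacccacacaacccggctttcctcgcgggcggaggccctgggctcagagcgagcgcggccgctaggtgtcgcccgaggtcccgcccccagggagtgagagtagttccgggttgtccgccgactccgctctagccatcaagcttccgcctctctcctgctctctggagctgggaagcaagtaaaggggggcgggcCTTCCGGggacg
Mrpl32: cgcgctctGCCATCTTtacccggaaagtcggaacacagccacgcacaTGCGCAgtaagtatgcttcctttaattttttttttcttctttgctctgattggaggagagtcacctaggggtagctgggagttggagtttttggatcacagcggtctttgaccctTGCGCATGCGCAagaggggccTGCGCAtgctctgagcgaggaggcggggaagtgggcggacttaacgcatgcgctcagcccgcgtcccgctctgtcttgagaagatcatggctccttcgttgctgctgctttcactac
Mrpl10: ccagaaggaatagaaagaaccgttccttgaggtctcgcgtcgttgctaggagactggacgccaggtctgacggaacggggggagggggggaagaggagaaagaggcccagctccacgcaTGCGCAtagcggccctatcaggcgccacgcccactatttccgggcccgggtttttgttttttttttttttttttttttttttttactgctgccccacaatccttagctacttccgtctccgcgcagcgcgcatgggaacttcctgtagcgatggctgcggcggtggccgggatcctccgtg

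Among large subunit proteins, 42 of 49 had a positive log2 fold change, with a median of 0.59. At an adjusted p under 0.05, 6 were higher, where 3.72% of all genes were. Mrpl42, a protein that bacterial ribosomes lack, was at 60.6, 34.9 and 50.9 CPM in the controls and at 174, 152 and 157 CPM in the mutants. The 3 mutant samples lay close together and far above every control. Its log2 fold change was 1.72 (SE 0.26, adjusted p = 0.0174), and it was the member that passed under the most settings. Mrpl50, also without a bacterial counterpart, was at 42.7, 24.7 and 37 CPM in the controls and at 106, 82.4 and 79.7 CPM in the mutants. The groups did not overlap, and the log2 fold change was 1.36 (SE 0.28, adjusted p = 0.0445).

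Mrpl20, whose bacterial relative binds rRNA early in assembly of the subunit, was at 50.9, 23.7 and 42.2 CPM in the controls and at 106, 96.8 and 105 CPM in the mutants. Its log2 fold change was 1.40 (SE 0.30, adjusted p = 0.0464). Mutant samples again sat in a narrow band above the controls. Mrpl15, another rRNA-binding protein shared with bacteria, was at 49.8, 24.6 and 38.3 CPM in the controls and at 91.2, 89 and 97 CPM in the mutants, a log2 fold change of 1.30 (SE 0.29, adjusted p = 0.0464). Mrpl41, present in mitochondria and not in bacteria, was at 53.4, 24.1 and 40.5 CPM in the controls and at 136, 71.2 and 129 CPM in the mutants. The lowest mutant, mutant 2, was still above the highest control, and the log2 fold change was 1.51 (SE 0.37, adjusted p = 0.0499).

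Mrpl1, the protein of the stalk beside the exit site for tRNA, had the highest log2 fold change of all 78 members. It was at 10.9, 5.96 and 8.84 CPM in the controls and at 34.3, 18.2 and 42.2 CPM in the mutants, and the log2 fold change was 1.88 (SE 0.46, adjusted p = 0.0483). The groups did not overlap, although the mutant samples were further apart than those of Mrpl15 or Mrpl20.

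The stalk that recruits translation factors on the other side of the subunit is built from Mrpl10, which anchors copies of Mrpl12, on a base that holds Mrpl11. Its 3 proteins had different values. Mrpl10 was at 67.1, 39.8 and 53.5 CPM in the controls and at 20.7, 27.7 and 25 CPM in the mutants. All mutant samples were below all controls, the reverse of most members, with a log2 fold change of -1.12 (SE 0.30, adjusted p = 0.064). Mrpl12 was at 79.4, 40.9 and 66.9 CPM in the controls and at 75.3, 73 and 55.7 CPM in the mutants, a log2 fold change of 0.12 (SE 0.29, adjusted p = 0.877). Mrpl11 was at 41.2, 22.6 and 32.3 CPM in the controls and at 88.4, 40.2 and 57.9 CPM in the mutants, with mutant 2 just below control 1, and a log2 fold change of 0.95 (SE 0.36, adjusted p = 0.187). The differences among the 3 proteins themselves were not tested.

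**Figure D2:**
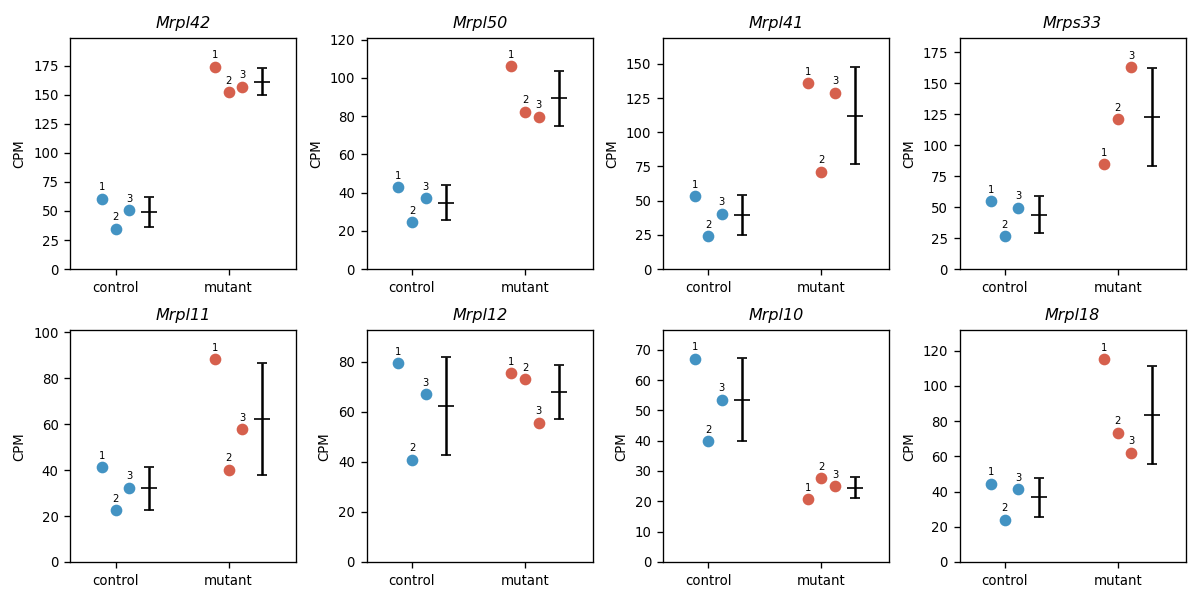
Level in CPM (linear axis from 0) in each sample for 8 large and small subunit genes. Points are samples with their replicate number, and the black bar beside them is the mean with 1 SD (n = 3). For Mrpl42 the mutants lie between 152 and 174 CPM and the controls between 34.9 and 60.6 CPM, whereas for Mrpl10 the mutants lie below the controls.

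Other large subunit proteins named for their role, or for the lowest values, did not pass an adjusted p of 0.05. Mrpl2 and Mrpl3, rRNA-binding proteins of the core, had log2 fold changes of 0.35 (SE 0.34) and 0.56 (SE 0.35). Mrpl45, which ties the tunnel exit to the inner membrane, had 0.34 (SE 0.35), and Mrpl36, a very small protein shared with bacteria, had -0.42 (SE 0.43). Besides Mrpl10, the lowest values of the subunit by log2 fold change were those of Mrpl38, at -0.46 (SE 0.34), and Mrpl44, at -0.43 (SE 0.45). The groups overlapped for each of these 6 genes, and the adjusted p was between 0.432 and 0.682.

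Among proteins named for the small subunit, Mrps18a, Mrps30 and Mrps36 included, 23 of 29 had a positive log2 fold change, with a median of 0.55. At an adjusted p under 0.05, 2 were higher, where 3.72% of all genes were. Mrps34, a protein not found in bacteria whose loss in patients causes Leigh syndrome, was at 32.5, 21.2 and 31.9 CPM in the controls and at 65.7, 67.5 and 72.1 CPM in the mutants. The mutants were tightly grouped above all controls, at a log2 fold change of 1.26 (SE 0.26, adjusted p = 0.0458). In the annotation, 63.4% of its exon bases overlap Mapk8ip3 on the other strand and 37% overlap Nme3 on the same strand, so its counts could be shared with those genes. Mrps33, also without a bacterial counterpart, was at 55, 26.7 and 49.7 CPM in the controls and at 84.5, 121 and 163 CPM in the mutants. The groups did not overlap, and the log2 fold change was 1.49 (SE 0.35, adjusted p = 0.0467).

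Mammals have 3 paralogs of the bacterial protein S18. Mrps18c, the closest to the bacterial form, was at 26.3, 9.89 and 18.3 CPM in the controls and at 44.5, 52.3 and 40.7 CPM in the mutants, a log2 fold change of 1.34 (SE 0.39, adjusted p = 0.091) that becomes -0.055 with the length and GC correction described below, and 23.2% of its exon bases overlap another counted model on the same strand. Mrps18a, which structures place in the large subunit, was at 33.9, 19.3 and 25.1 CPM in the controls and at 37.8, 43 and 65.3 CPM in the mutants, a log2 fold change of 0.90 (SE 0.34, adjusted p = 0.179). For both paralogs every mutant sample was above every control. Mrps18b was at 16.9, 10.6 and 15.9 CPM in the controls and at 10, 7.86 and 25.2 CPM in the mutants, with the groups overlapping and a log2 fold change of -0.0092 (SE 0.56, adjusted p = 0.995). Its direction flips with the samples and genes used, and 30.5% of its exon bases overlap an antisense gene.

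Other small subunit proteins named for their role did not pass an adjusted p of 0.05. Mrps12, at the decoding centre, was at 20.1, 11 and 19.7 CPM in the controls and at 0.437, 28.3 and 22.8 CPM in the mutants, so mutant 1 stood apart from all other samples. Its log2 fold change was 0.03 (SE 0.98) and changes sign under several settings. Mrps5, near the entry of the message, was at 31.9, 24.9 and 32.5 CPM in the controls and at 30.1, 31.8 and 26.6 CPM in the mutants, a log2 fold change of -0.013 (SE 0.28), also with a sign that is not fixed. Mrps7 and Mrps15, which bind rRNA, had 0.47 (SE 0.30) and 0.29 (SE 0.33), and Mrps16 had 0.87 (SE 0.37, adjusted p = 0.24). The proteins without a bacterial counterpart Mrps22 and Mrps27 had 0.89 (SE 0.51) and -0.024 (SE 0.54), and Mrps30, which structures place in the large subunit, had 0.10 (SE 0.61). Mrps36, which was named a ribosomal protein but is a component of the 2-oxoglutarate dehydrogenase complex, had 0.70 (SE 0.35, adjusted p = 0.321). The lowest small subunit values were those of Mrps26, at -0.40 (SE 0.48), and Mrps2, at -0.23 (SE 0.35), followed by Mrps31, at -0.034 (SE 0.53).

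A single member had a count of 0 in a sample. Mrpl35, a large subunit protein shared with bacteria, was at 14.4, 12.1 and 14.9 CPM in the controls and at 0, 26.4 and 9.78 CPM in the mutants, where the count of 0 in mutant 1 allows up to 0.655 CPM at 3 counts. That library had the lowest total. In it 339 genes were at 0 while the other 5 samples were all at 5 CPM or more, against 8 such genes in mutant 2, 32 in mutant 3 and 0 in each control. A level of 5 CPM is above the 0.655 CPM of 3 counts in mutant 1. That bound covers counting error only, and why these genes were at 0 was not tested. The log2 fold change of Mrpl35 was -0.18 (SE 1.17) and it was 0.37 without mutant 1.

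Members were also set apart by whether bacterial ribosomes have a counterpart. In the large subunit the median log2 fold change was 0.63 over 30 proteins with a counterpart and 0.59 over 19 without one, and 11 and 7 of them were higher at the unadjusted threshold. In the small subunit the medians were 0.54 over 16 and 0.69 over 13, with 5 and 3 higher. Of all genes, 10.9% were higher at that threshold. With the length and GC correction described below, 8, 3, 2 and 1 were higher in the same order of groups, where 6.94% of all genes were. None of the 4 groups then had a member past an adjusted p of 0.05. Without the correction Mrpl10 was again the lone lower member, in the first of these groups, where 4 were lower with it. Subunits here follow the names, and Mrps18a, Mrps18b and Mrps36 were counted among those without a counterpart.

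Levels between genes were compared per kilobase of transcript. In the controls the highest were Mrpl52 (157 CPM per kb), Mrps21 (112 CPM per kb) and Mrpl54 (90.6 CPM per kb), and the lowest were Mrpl35 (3.71 CPM per kb), Mrpl47 (3.31 CPM per kb) and Mrpl1 (2.49 CPM per kb). The length is a median over annotated transcripts, so the lowest ranks lean on long annotated models. The order was much the same in the mutants, where Mrpl52 stood at 371 CPM per kb and Mrps21 at 246 CPM per kb, and the Spearman rho between control and mutant levels was 0.92 across the 78 genes, which share libraries and are not independent. The 26 members with the lowest control levels (8.56 to 23.6 CPM) had a median log2 fold change of 0.32, the next 26 had 0.59, and the 26 with the highest levels (36.7 to 69.2 CPM) had 0.69. Other protein-coding genes in the same ranges of level had medians of -0.05, -0.14 and -0.24. Of the named genes in this order, Mrpl52 had a log2 fold change of 1.24 (SE 0.35), Mrps21 of 1.14 (SE 0.38), Mrpl54 of 0.68 (SE 0.35) and Mrpl47 of 1.04 (SE 0.41), with an adjusted p between 0.0804 and 0.343. With the length correction Mrps21 turned to -0.34, and with the longest transcript in it Mrpl52 was at -0.16 and Mrpl54 at -0.11.

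Within the controls the 78 genes kept nearly the same order of samples. Control 2 was the lowest control for 78 of 78 members and control 1 the highest for 71. The share of all genes with this order was not counted. The same order held for the sums of other lists described below, as for cytosolic ribosomal proteins (115122, 42434 and 87268 CPM) and import and outer membrane proteins (1625, 975 and 1443 CPM). It did not hold for all lists, as for the biogenesis regulators (214, 249 and 243 CPM). In the mutants the lowest sample was mutant 1 for 23 members, mutant 2 for 35 and mutant 3 for 20. The members summed to 3204, 1698 and 2617 CPM in the controls and to 4414, 3739 and 4290 CPM in the mutants, so every mutant was above every control. As a share of all counts, with no scaling, they made up 0.341%, 0.199% and 0.277% of the control libraries and 0.383%, 0.371% and 0.375% of the mutant libraries. The large subunit proteins summed to between 1137 and 2160 CPM in the controls and between 2555 and 3150 CPM in the mutants, and the small subunit proteins to between 561 and 1044 CPM and between 1184 and 1464 CPM. With the length and GC correction described below, the median log2 deviation of the members from the control mean overlapped between groups. It was 0.15, -0.23 and 0.091 in the controls and 0.071, 0.16 and 0.24 in the mutants. Large subunit proteins stayed narrowly apart, at 0.14, -0.23 and 0.083 against 0.27, 0.18 and 0.34, with mutant 2 (0.18) little above control 1 (0.14). This measure was not taken for other sets of genes or with the longest transcript. Small subunit proteins overlapped, at 0.16, -0.22 and 0.094 against -0.084, 0.14 and 0.23. Control 2 was also the control with the highest sum of skeletal muscle markers (3324 CPM) and of the 4 odontoblast markers, none of them at 0 (8677 CPM, against 2877 and 1997 CPM in the other controls and 2722 to 4214 CPM in the mutants); their part in its low member values was not tested. The median SD of a member over the 3 samples on the log2(CPM + 0.5) scale was 0.43 in the controls and 0.38 in the mutants, where over all genes tested it was 0.32 and 0.64.

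**Figure D3:**
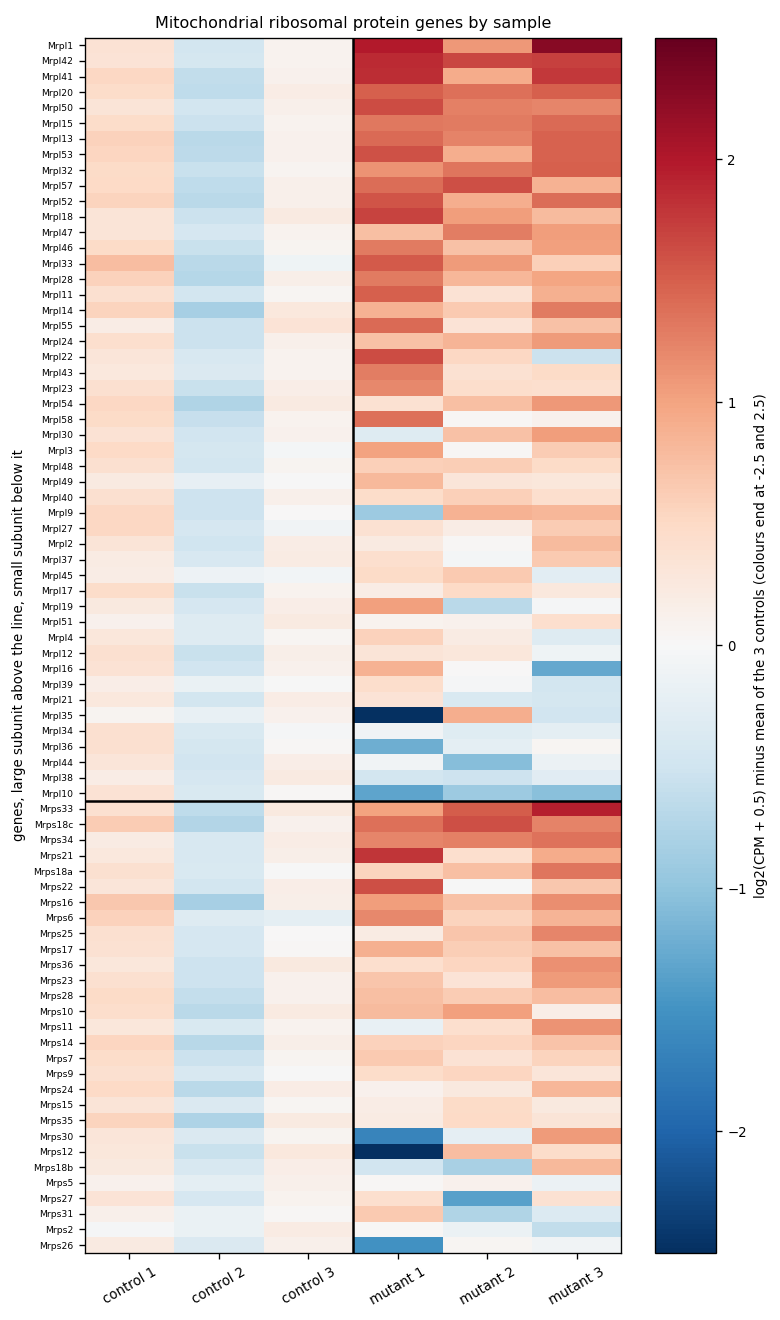
Level of each mitochondrial ribosomal protein gene in each sample, as log2(CPM + 0.5) minus the mean of the 3 controls, with red for higher and blue for lower. Large subunit genes are above the line and small subunit genes below it, each sorted by log2 fold change. Control 2 is the lowest control in every row, and the darkest single cells, for Mrpl35 and Mrps12, are in mutant 1.

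Shorter transcripts had higher log2 fold changes in these libraries, and mitochondrial ribosomal proteins are short. Their median transcript length was 1224.5 bases, against 2741 bases for other protein-coding genes tested. Across genes, which are not independent, the Spearman rho of length and log2 fold change was -0.29 over the 78 members and -0.28 over 13728 others. Between 600 and 800 bases the 17 members had a median log2 fold change of 0.78 and 368 other genes had 0.79. From 800 to 1000 bases the 9 members had 0.35 and the others 0.65. Members with longer transcripts lay above other genes of their length. From 1000 to 1300 bases the medians were 0.74 over 12 members and 0.33 over the others, from 1300 to 2000 bases 0.45 over 16 members and 0.05, and from 2000 to 4000 bases 0.58 over 14 members and -0.23.

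Once a trend on transcript length and GC content was removed from each sample, the median log2 fold change of the members was 0.13, against -0.02 over all genes, and 49 of 78 were positive (48.5% of all genes). At the unadjusted threshold 14 were then higher, 13 of them among the 26 above, and 4 were lower, where 6.94% and 7.39% of all genes passed. Of the 8 members called without the correction, Mrpl1 (1.52), Mrpl15 (1.04), Mrps34 (0.95), Mrpl50 (0.83) and Mrpl41 (0.67) stayed past that threshold in corrected log2 fold change, and Mrpl42 (0.37), Mrpl20 (0.18) and Mrps33 (0.12) did not. Mrpl10 was lower in both, at -1.41 after correction (SE 0.25, adjusted p = 0.0619 in edgeR), and Mrpl36 (-1.20), Mrpl34 (-1.08) and Mrpl21 (-0.82) were lower only after it. The correction is a trend fitted on these same 6 libraries, and whether the length trend arose in the tissue or in the preparation of the libraries was not tested.

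**Figure D4:**
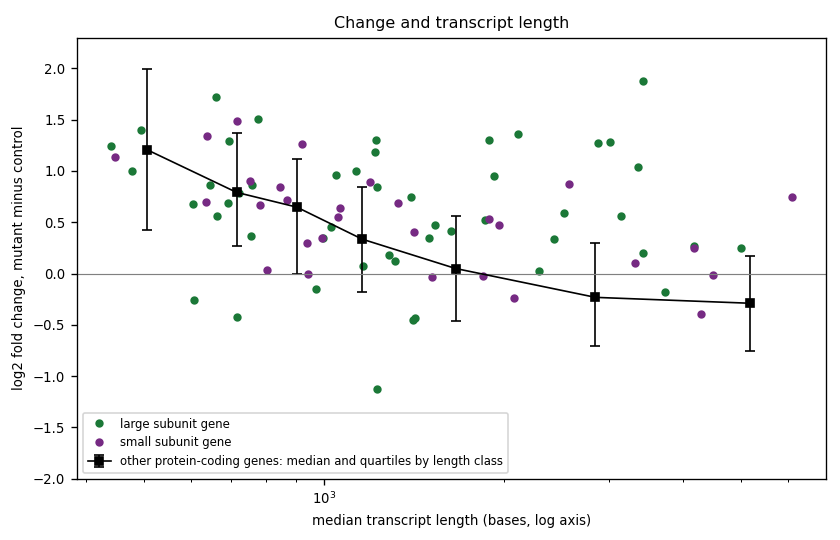
Log2 fold change, mutant minus control, against median transcript length in bases (log axis) for large (green) and small subunit genes (purple). Black squares give the median and bars the quartiles of other protein-coding genes in 7 length classes. The squares fall from 1.21 in the shortest class to -0.29 in the longest, and 12 of the 14 members between 2000 and 4000 bases lie above 0.

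Partners of these proteins were described from lists of known genes. The 5 mitoribosome proteins with other names had a median log2 fold change of 0.48, with 1 called at an adjusted p. This was Chchd1, a small subunit protein, at 60.3, 20.1 and 44.8 CPM in the controls and at 219, 132 and 181 CPM in the mutants, with a log2 fold change of 2.09 (SE 0.41, adjusted p = 0.0428), whereas Dap3, a GTP-binding protein of the same subunit, had -0.44 (SE 0.30, adjusted p = 0.481). The 2 rRNAs of the mitochondrial ribosome, which stand in the mitochondrial genome, summed to 919, 395 and 879 CPM in the controls and to 5151, 2752 and 3807 CPM in the mutants. Both were called, mt-Rnr1 at a log2 fold change of 3.07 (SE 0.41, adjusted p = 0.0102), and so were 13 of 13 messages that this ribosome translates, with a median of 3.35. With the length and GC trend removed, 1 of the 13 messages (mt-Atp8) and 0 of the 2 rRNAs were called, with medians of 1.27 and 0.86. The largest difference among them was in mt-Atp8, at 36.3, 24.1 and 30.9 CPM in the controls and at 4671, 2837 and 4183 CPM in the mutants (adjusted p = 0.000474). Most of the 13 messages differed far less, with quartiles of 3.06 and 3.60 in log2 fold change. How reads were counted is not given in the sources used here, and its part in the mt-Atp8 value was not tested. Without the length and GC correction, each of these 15 mitochondrially encoded genes had a larger log2 fold change than any of the 78 proteins, the nearest being mt-Rnr2, at 2.15 (SE 0.44), beside Mrpl1, at 1.88. With it, 3 of the 15 lay above Mrpl1, which was then at 1.52.

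Genes that build the mitochondrial ribosome or work with it had medians near or below 0. Over 28 assembly and rRNA modification factors the median was 0.03 and 14 were positive, with Malsu1, a factor of the large subunit, at 1.09 (SE 0.37, adjusted p = 0.142) and Dhx30, an RNA helicase, at -1.36 (SE 0.36, adjusted p = 0.0648). Over 16 translation factors the median was -0.25. Slirp alone was called, at 1.52 (SE 0.31, adjusted p = 0.0445), and its partner Lrpprc, with which it protects mitochondrial messages, had -0.71 (SE 0.31, adjusted p = 0.251). Over 22 aminoacyl-tRNA synthetases the median was -0.31 and 0 were called or past the unadjusted threshold with over 1.5-fold, with Pars2 at 0.81 (SE 0.77) and Gars at -0.50 (SE 0.21, adjusted p = 0.238). In the order given, the median transcript lengths of these lists were 1708, 2560.5 and 2368.2 bases, against 1224.5 for the members. With the length and GC correction their medians were -0.21, -0.012 and -0.013, against 0.13 for the members and -0.02 over all genes.

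Over 19 genes of mitochondrial DNA transcription, replication and RNA processing the median was 0.32, with Ssbp1, which coats single-stranded mitochondrial DNA, called at 1.45 (SE 0.32, adjusted p = 0.0464) and the polymerase Polg at -0.40 (SE 0.36). Over 9 regulators of mitochondrial biogenesis it was 0.04. Ppargc1b, a coactivator, was at 2.88, 4.78 and 3.55 CPM in the controls and had a count of 0 in every mutant, which allows up to 0.655, 0.256 and 0.302 CPM at 3 counts (adjusted p = 0.0464), and Gabpb1, a partner of an ETS factor, had 0.81 (SE 0.38, adjusted p = 0.282). Over 21 import and outer membrane proteins the median was 0.82 and 2 were called, among them Tomm5 at 1.97 (SE 0.37, adjusted p = 0.0374), with Vdac1 at -0.58 (SE 0.25). Over 14 citric acid cycle genes it was -0.12, with Ogdh lower at -1.02 (SE 0.25, adjusted p = 0.0489) and Dld at 0.83 (SE 0.25, adjusted p = 0.0991). The 80 cytosolic ribosomal proteins had a median of 1.22, 15 were called higher and 0 lower, and their median transcript length was 772.5 bases. Of the 8 genes given above by name as called, members and mt-Rnr2 aside, mt-Atp8 was called in all 6 fits that leave out a sample, mt-Rnr1 in 4, Tomm5 in 2, Slirp and Ppargc1b in 1 each, and Chchd1, Ssbp1 and Ogdh in 0, and with the length and GC trend removed mt-Atp8 alone of these 8 was called (adjusted p = 0.00891 in edgeR).

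**Figure D5:**
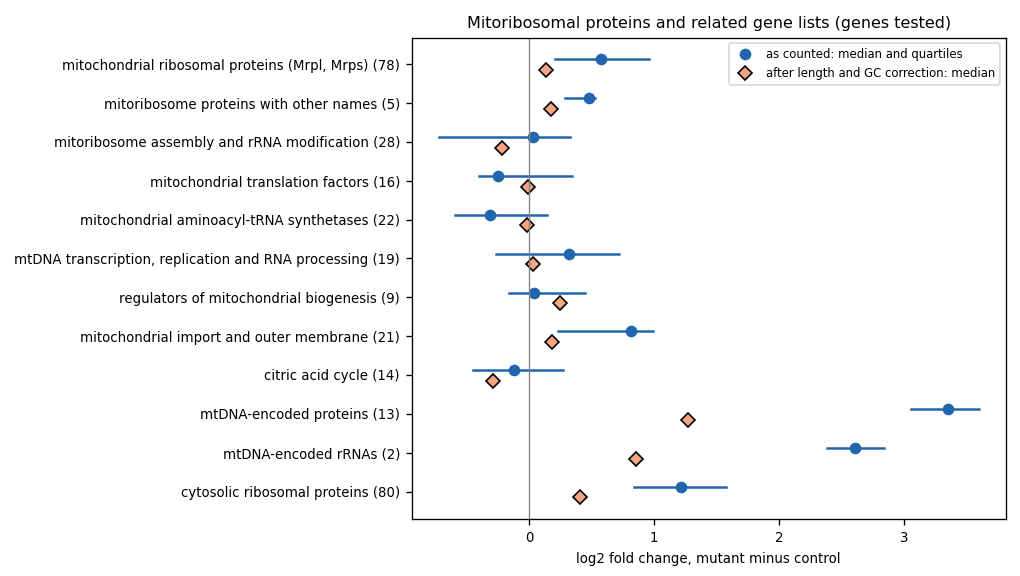
Log2 fold change, mutant minus control, of the mitochondrial ribosomal proteins and of related gene lists. Circles and lines give the median and quartiles, diamonds the median after the length and GC correction, and numbers in brackets the genes tested. The members move from 0.58 to 0.13 with the correction, cytosolic ribosomal proteins from 1.22 to 0.41 and mitochondrially encoded messages from 3.35 to 1.27.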

How the data were processed

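RNA of proximal incisors from control and mutant mice, in 3 control and 3 mutant samples, was sequenced as single reads. The authors trimmed the reads, aligned them in Partek Flow to mm10 (GRCm38) and deposited the estimated counts of each gene, which are not normalized. The submitters' processing notes name TopHat2 2.0.8. How reads were counted, whether by strand, on which annotation and with which filter is not given in the sources used here. A deposited table of the authors' own comparison of mutant with control was not used. It holds p-values, ratios and fold changes.

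The estimated counts were rounded to whole numbers, 6 samples were grouped by their labels, and all genes were fitted together in edgeR 4.0.16 (R 4.3.3) with its default filter (minimum count 10, total 15), upper-quartile scaling as in the study, genotype as the only term and its quasi-likelihood test (two-sided), adjusted by Benjamini-Hochberg over all 15826 genes tested. The SE is the log2 fold change divided by the square root of its F statistic. A second threshold was p under 0.05 with over 1.5-fold. The mice behind the samples are not described further, so p-values measure the spread between these samples. Counts at 0 were read as up to 3 counts, which covers counting error only.

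Symbols were matched to GENCODE M21 on GRCm38 (18637 directly, 219 through a synonym, 204 not), all 78 members among them. Transcript length is the median over basic transcripts. The correction for length and GC content was a smooth trend per sample (mgcv 1.9.3), estimated from protein-coding genes averaging 50 counts or more. Exons of 9 members overlap another counted gene over 20% or more of their bases. Alternatives were TMM and total-count scaling, DESeq2 1.42.0, other filters, a replicate block, thinned control counts, protein-coding genes only and leaving out each sample. The length of the longest principal transcript was added as an alternative after seeing the data. The fit was tested on simulated data.

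The members and gene lists were chosen with earlier results of these data known. Values are printed for the 4 members of each subunit with the smallest p in each direction, the 3 with the highest and lowest log2 fold change and level per kb, members fixed for their role, members with a count of 0, and 1 gene in each direction of each other list. Mrpl13, Mrpl18, Mrpl32, Mrpl53, Mrpl57, Mrpl21, Mrpl34 and mt-Rnr2, and the members listed by name under a threshold, were named after their values were seen. Mrpl32 was also chosen for its promoter in that way. Promoter motifs were picked with the results for the members known. A longer NRF1 motif was counted first and was replaced by its core after its shares had been seen, for a reason of format and not of result, and the shares of the core are the ones given.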

Additional observations from a re-analysis of the deposited data

Results flagged for a closer look

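The counts also hold 5 pseudogene columns of this family, which entered no comparison above, and in 2 of the 3 that passed the filter every mutant sample was above every control sample. Mrpl23-ps1 was at 11.2, 4.78 and 8.55 CPM in the controls and at 36.7, 29 and 30.5 CPM in the mutants, a log2 fold change of 1.97 (SE 0.43, adjusted p = 0.0464 in edgeR). With the length and GC correction it was 0.81 (adjusted p = 0.244), so the call was lost. Its counts were 21.4%, 17.7% and 19.2% of those of its parent gene Mrpl23 in the controls and 39.4%, 53.7% and 57.1% in the mutants, while Mrpl23 itself had a log2 fold change of 0.69 (SE 0.34, adjusted p = 0.319). Mrpl48-ps was at 1.78, 0.0825 and 2.22 CPM in the controls and at 3.93, 8.28 and 4.13 CPM in the mutants, a log2 fold change of 2.00 (SE 1.22, adjusted p = 0.426), so it did not pass the test, and control 2 had no more than 3 counts. Reads of a pseudogene and of its parent can be hard to tell apart, and how the deposited counts divide them was not tested.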

How the results depend on the processing

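At an adjusted p under 0.05 the number of higher members was 8 as reported. It was 5 with TMM scaling, 2 with total counts only, 15 with DESeq2, 1 without the filter, 3 at a mean of at least 50 counts, 1 with thinned controls, 1 with protein-coding genes only, 0 with the length and GC correction, 0 with the longest transcript in it, and 0 to 1 with 1 sample left out. Genes of any kind called in either direction were 1074 as reported, 1060 with TMM scaling, 1137 with total counts only and 1609 with DESeq2. They were 229 without the filter, 370 at a mean of at least 50 counts, 374 with thinned controls and 54 with protein-coding genes only. With the length and GC correction they were 146, and with the longest transcript in it 126. The number lower was 1 with TMM scaling, total counts only and DESeq2, in each case Mrpl10, and 0 otherwise. At the unadjusted threshold 26 were higher as reported (10.9% of all genes), 16 with total counts only, 14 with the correction (6.94%), 12 with the longest transcript, and 17 to 32 with 1 sample left out. At that threshold 1 was lower as reported (8.92%), 4 with the correction (7.39%), 5 with the longest transcript, and 1 in every fit with 1 sample left out. With total counts only and with the longest transcript the share of all genes past this threshold was not counted, so those member counts stand without one. Total-count scaling shifted the median of all genes from -0.04 to -0.30. The median of the members was 0.13 with the correction, 0.075 with the longest transcript, and 0.37 to 0.84 with 1 sample left out. Their summed CPM in mutants averaged 4148 and was 3771 with total counts only. List medians moved to 1.27 and 1.13 (mitochondrially encoded messages), 0.86 and 0.74 (rRNAs) and 0.19 and 0.25 (import) with the correction and the longest transcript.

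Control and mutant samples share replicate numbers, and the deviations of samples with the same number correlated at 0.0472, 0.00937 and 0.0548. With 3 samples in a group, such low values cannot tell whether samples were paired. The study's methods mention pairs of samples and do not say what links them. With the number as a replicate block 8 members were called, 5 of them among the 8 above, 29 were higher at the unadjusted threshold, and the median of the assembly factors was -0.36. In that fit 508 genes of any kind were called in either direction at an adjusted p under 0.05, and the share of all genes past the unadjusted threshold was not counted.

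Of 592 values of the 37 named members under 16 alternatives, 434 kept direction and call, 99 lost the call, 6 gained it and 53, over 16 members, changed sign, mostly from near 0. Only the 8 members called as reported could lose a call, so all 99 losses were theirs. A member not called counted as kept while it stayed uncalled with the same sign. With the correction the log2 fold change was -0.055 for Mrps18c, -0.34 for Mrps21, 0.14 for Mrps5, -0.0025 for Mrpl2, -0.0016 for Mrpl12, -0.44 for Mrps12, -0.26 for Mrps15, 0.0086 for Mrps27, -0.011 for Mrps30, -0.50 for Mrps36 and 0.032 for Polg. With the longest transcript it was -0.026 for Mrps18c, -0.42 for Mrps21, 0.14 for Mrps5, -0.16 for Mrpl52, -0.11 for Mrpl54, -0.067 for Mrpl2, -0.084 for Mrpl12, -0.50 for Mrps12, -0.38 for Mrps15, -0.059 for Mrps22, -0.0096 for Mrps30, -0.62 for Mrps36 and 0.068 for Polg. With protein-coding genes only it was 0.013 for Mrps5, 0.0019 for Mrps27 and 0.017 for Mrps18b. Total counts only gave -0.12 for Mrpl12, -0.18 for Mrps12 and -0.16 for Mrps30, TMM scaling -0.051, DESeq2 -0.0042 and thinned controls -0.10 for Mrps12, and the replicate block -0.58 for Mrps12 and -0.22 for Mrps30. With 1 sample left out, the values of genes whose sign changed ran from -0.58 to 0.23 for Mrps31, from -0.13 to 0.056 for Mrps5, from -1.47 to 0.37 for Mrpl35, from -0.11 to 0.33 for Mrpl12, from -0.54 to 0.58 for Mrps12, from -0.30 to 0.37 for Mrps27, from -0.81 to 0.52 for Mrps30 and from -0.71 to 0.28 for Mrps18b. The cause of these changes was not tested. Depth limits genes with few counts in mutant 1 most, and its part in these changes or in the zeros of that library was not tested.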
